A study of Sus scrofa with 207 samples.

Results

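ADM, HIF1A, SLC2A1 and VEGFA, a set of genes of the hypoxia response, were followed in muscle of 207 crossbred pigs. They were found by taking every probe set whose only gene symbol in the array annotation was one of these names, which gave 10 of 23935 tested probe sets and 4 of 6765 genes. Each animal was a commercial pig of the cross Pix(DLxDE), its muscle was taken when it was slaughtered at a herd mean of 110 kg, and its total RNA was hybridised to 1 Affymetrix Porcine Genome Array. All animals therefore belonged to 1 group, with no treated or control animals, and the labels gave neither sex nor sire nor slaughter day nor the muscle that the RNA came from. What differed between animals, by the labels, was a pair of carcass traits. Drip loss, the share of weight that a hung slice of longissimus muscle lost as fluid, averaged 5.37 ± 2.22% (SD, n = 207), from 1.45 to 10.82%. Fat area over the same muscle averaged 15.0 ± 3.15 cm2 (SD), from 8.1 to 26.7 cm2, and was missing for 8 of the 207 animals. Slopes below are changes in log2 expression per SD of a trait, fitted with limma over all 23935 probe sets, and a probe set passed at an adjusted p under 0.05.

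When oxygen is short, the HIF1A protein is no longer marked for breakdown by the prolyl hydroxylase EGLN1 and the ubiquitin ligase that contains VHL, so it pairs with ARNT and switches on target genes. Among the targets are ADM, which encodes the vasodilator peptide adrenomedullin, VEGFA, which encodes a growth factor for blood vessels and is needed for the capillaries of skeletal muscle, and SLC2A1, which encodes a glucose transporter that does not depend on insulin. Much of this control acts on the HIF1A protein, which an array of transcripts does not measure.

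By their brightest probe sets, transcripts of ADM, HIF1A and SLC2A1 were lower in animals with more drip loss. None of the 4 genes followed fat area. ADM fell by 0.14 ± 0.030 log2 per SD of drip loss, HIF1A by 0.11 ± 0.029 and SLC2A1 by 0.072 ± 0.021 (SE, n = 207). These were 3 of the 4 genes by their brightest probe set, where 2.11% of all 6765 genes passed downward, and 3 of the 10 probe sets, where 2.67% of all 23935 passed downward. The members were chosen with earlier results of these data known, so these shares are a description and no test. Of the VEGFA probe sets 0 of 4 passed in this fit. One of them, VEGFA-2 below, had a slope of -0.12 ± 0.043 that missed the threshold over all probe sets (adjusted p = 0.0726). Of 29 further HIF target genes measured, 0 passed for drip loss, where 6.08% of all 6765 genes passed in either direction, a share that a list of this size is too short to fall clearly below.

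The deposited values are on a log2 scale with a floor at 4, and a level on one probe set cannot be set against a level on another, since probes bind with different strength. ADM and SLC2A1 had 1 probe set each. HIF1A and VEGFA had 4 each, here numbered by falling mean from HIF1A-1 to HIF1A-4 and from VEGFA-1 to VEGFA-4. The brightest probe set stood for the gene wherever 1 value per gene is given. Which transcripts or strands each probe set binds was not looked up, since no probe sequences were used here.

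Some of the probe sets varied far more between pigs than others. ADM had a lowest value of 5.99, a median of 7.07 and a highest of 8.25 log2, with an SD of 0.449. That SD was larger than in 94.7% of all probe sets, and the animal with the most ADM signal had 4.79-fold that of the animal with the least. HIF1A-1 ran from 6.61 through a median of 7.47 to 8.86 log2, with an SD of 0.435 that exceeded 94.1% of probe sets. SLC2A1 lay lower on the scale, from 5.02 through 5.74 to 7.32 log2, with an SD of 0.318. Its distribution had a tail upward, and the plot of levels shows a single animal at 7.32 well apart from the others.

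The VEGFA probe sets differed among themselves in spread. VEGFA-1, the brightest, ran from 10.49 through 11.30 to 12.32 log2 and had an SD of only 0.219, against a median SD of 0.246 over all probe sets. VEGFA-2 ran from 8.13 through 9.57 to 11.35 log2, with an SD of 0.633 that exceeded 98.4% of probe sets. The span of VEGFA-2 was 9.32-fold between the lowest and the highest animal, the widest of the 10 probe sets. VEGFA-3 ran from 5.16 through 6.03 to 7.01 log2 with an SD of 0.318, and VEGFA-4 from 4.86 through 5.46 to 5.78 with an SD of 0.141.

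The remaining HIF1A probe sets were dimmer than HIF1A-1 and varied less. HIF1A-2 stayed between 5.32 and 6.18 log2 with an SD of 0.168, smaller than in all but 4.76% of probe sets. HIF1A-3 had a median of 4.52 log2 with 12 of 207 animals at the floor and a highest value of 5.24, and its SD of 0.264 exceeded 60.1% of probe sets. HIF1A-4 had a median of 4.42 log2 with 5 animals at the floor and an SD of 0.205. Values at the floor have no order among themselves, so these last have less information than the count of animals implies.

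**Figure D1:**
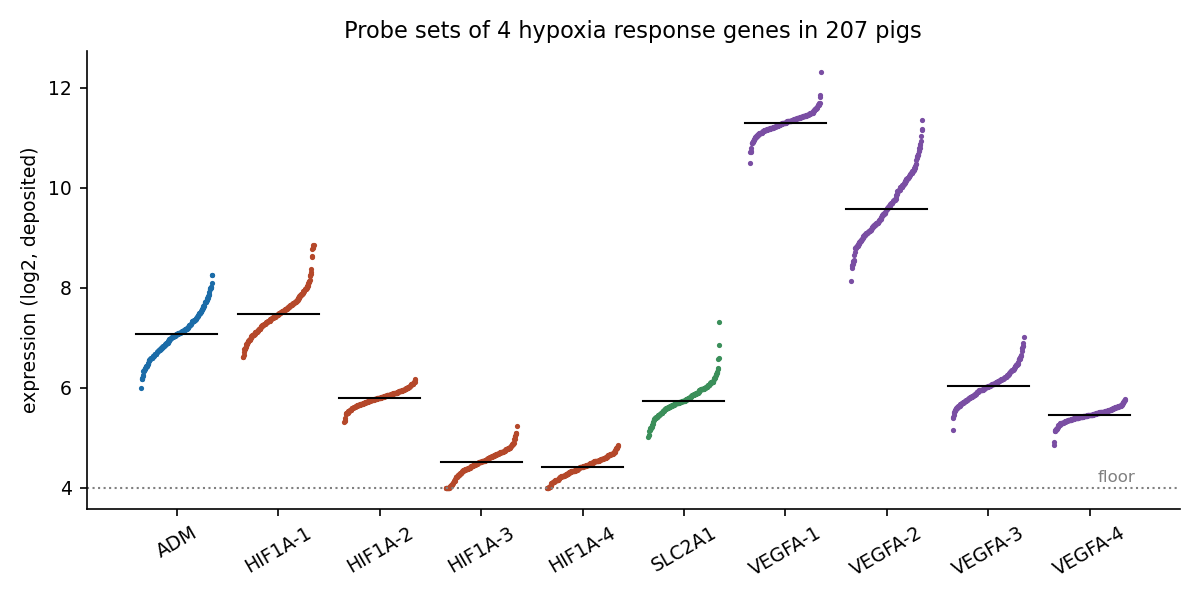
Deposited log2 expression (vertical axis) of the 10 probe sets in 207 pigs, each point 1 animal, sorted within its probe set, with a bar at the median and a dotted line at the floor of 4. ADM, HIF1A-1, SLC2A1 and VEGFA-2 spread over more than 2 log2 units, while HIF1A-2, HIF1A-4 and VEGFA-4 stay within 1.

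The data behind the drip loss slopes can be read from quartiles of the trait. The quartiles held 52, 52, 51 and 52 animals, with drip loss of 1.45 to 3.58%, 3.60 to 5.26%, 5.30 to 7.18% and 7.22 to 10.82%. In the regulator HIF1A-1 the median was 7.59, 7.61, 7.34 and 7.39 log2 from the lowest to the highest quartile. Both quartiles of lower drip loss lay above both of higher drip loss, with no further step downward within either pair. Single animals overlapped throughout, from 6.82 to 8.86 log2 in the lowest quartile and from 6.72 to 8.64 in the highest. The slope of -0.11 ± 0.029 log2 corresponds to a signal that fell by 7.37% per SD of drip loss (adjusted p = 0.013), and drip loss accounted for 6.46% of the variance of HIF1A-1.

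No other probe set of HIF1A passed. HIF1A-2 had a slope of 0.014 ± 0.012 log2 per SD, HIF1A-3 of 0.027 ± 0.018 and HIF1A-4 of -0.014 ± 0.014 (SE, n = 207), with adjusted p-values of 0.574, 0.422 and 0.640. HIF1A-3 and HIF1A-4 lay close to the floor, where a change in the transcript gives little change in signal. Their slopes therefore cannot be set against that of HIF1A-1. HIF1A-2 had a median of 5.80 log2 and no animal at the floor. Its 95% interval, -0.0096 to 0.037, did not hold the slope of HIF1A-1. The fall of HIF1A with drip loss was called on 1 of its 4 probe sets, the one with the highest signal.

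ADM showed the steepest relation among the 4 genes. Its median was 7.195, 7.165, 7.08 and 6.86 log2 from the lowest to the highest quartile of drip loss. By medians most of the step lay between the third and the last. The means were 7.20, 7.23, 7.02 and 6.86 log2, and by these the largest step lay between the second and the third. The animals spanned 6.33 to 8.25 log2 in the lowest quartile and 6.19 to 7.99 in the highest, and the groups overlapped over most of that range. ADM signal fell by 9.30% per SD of drip loss (slope -0.14 ± 0.030 log2, adjusted p = 0.0016), and drip loss accounted for 9.81% of its variance. As a plain correlation, ADM had r = -0.313 and rho = -0.327 with drip loss (permutation p = 1e-05 for each, the smallest that 100000 permutations can give). Leaving out the 2 animals most extreme in drip loss gave r = -0.346.

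SLC2A1 was lower by a smaller amount. Its medians were 5.855, 5.795, 5.74 and 5.685 log2 from the lowest to the highest quartile of drip loss, a small step down at each. The animals spanned 5.06 to 6.58 log2 in the lowest quartile and 5.05 to 6.31 in the highest, and the animal with the most SLC2A1, at 7.32, lay in the second. The signal fell by 4.86% per SD of drip loss (slope -0.072 ± 0.021 log2, adjusted p = 0.032), and drip loss accounted for 5.11% of the variance. The correlation was r = -0.226 and rho = -0.260 (permutation p = 0.00114 and 0.00018), and r = -0.261 when the 2 animals most extreme in drip loss were left out. For HIF1A-1 it was r = -0.254 and rho = -0.258 (permutation p = 0.00019 and 0.00017), and r = -0.258 without those 2 animals.

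VEGFA-1 had nearly equal quartile medians across drip loss, 11.34, 11.29, 11.28 and 11.34 log2. Its slope was -0.0026 ± 0.015 log2 per SD (adjusted p = 0.953, 95% interval -0.033 to 0.027). VEGFA-2 had quartile medians of 9.745, 9.755, 9.36 and 9.315 log2, higher in both quartiles of lower drip loss, the same shape as HIF1A-1. Its slope of -0.12 ± 0.043 log2 was about as steep as that of ADM, but with its wider spread it did not pass over all probe sets (unadjusted p = 0.0045, adjusted p = 0.0726). As a plain correlation VEGFA-2 had r = -0.194 and rho = -0.195 with drip loss (permutation p = 0.00519 and 0.00468), weaker than those of ADM, HIF1A-1 and SLC2A1, and r = -0.221 when the 2 animals most extreme in drip loss were left out. VEGFA-2 passed when the 2 animals most extreme in drip loss were left out (slope -0.14, adjusted p = 0.038), with fat area in the fit (-0.14, adjusted p = 0.047) and when only the brighter part of all probe sets was tested (adjusted p = 0.046). VEGFA-3 had a slope of -0.040 ± 0.022 (adjusted p = 0.301) and VEGFA-4 of 0.0050 ± 0.010 (adjusted p = 0.842).

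**Figure D2:**
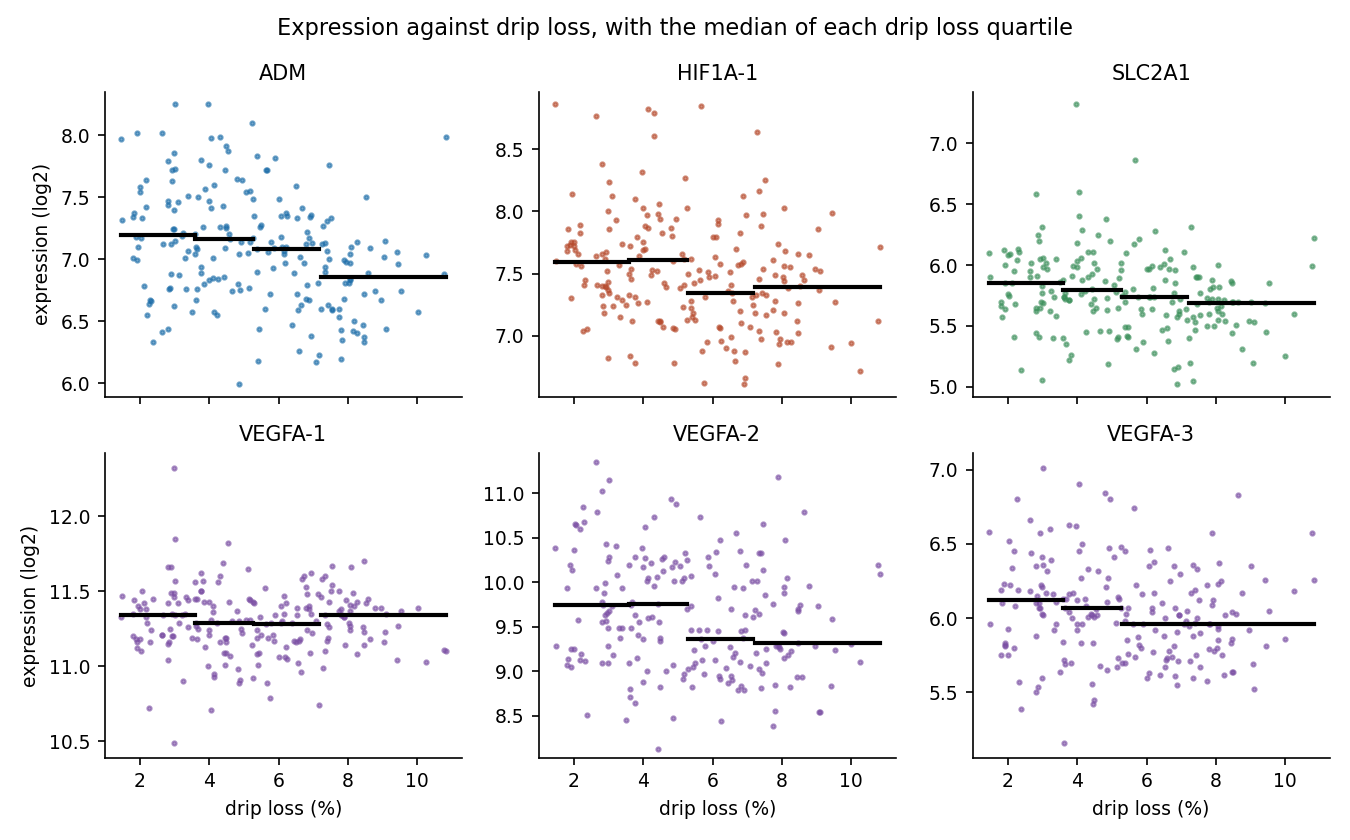
Log2 expression (vertical axes) against drip loss in percent (horizontal axes) for 6 probe sets, each point 1 of 207 pigs, with black bars at the median of each drip loss quartile. Medians step down to the right for ADM and SLC2A1, lie higher in both left-hand quartiles for HIF1A-1 and VEGFA-2, and stay between 11.28 and 11.34 for VEGFA-1.

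Of the 10 probe sets 0 passed for fat area, where 0.121% of all 23935 passed. ADM had a fat area slope of -0.0048 ± 0.032 log2 per SD, HIF1A-1 of -0.025 ± 0.031, SLC2A1 of 0.018 ± 0.023 and VEGFA-1 of 0.0032 ± 0.016 (SE, 207 animals less 8). The adjusted p-values of the 10 lay between 0.724 and 0.992. At an unadjusted p under 0.05 the count was also 0, where it was 1692 of all 23935 probe sets. A set of 10 is too small to fall clearly below that share. The lowest unadjusted p of the 10 in the limma fit was 0.061, for HIF1A-4. The interval for ADM ran from -0.067 to 0.057 log2, so a fat area slope of the size of its drip loss slope lay outside it. With both traits in 1 fit, the drip loss slope minus the fat area slope was -0.12 ± 0.041 log2 for ADM (unadjusted p = 0.0025, adjusted p = 0.132), -0.088 ± 0.030 for SLC2A1 (unadjusted p = 0.0034, adjusted p = 0.154) and -0.076 ± 0.040 for HIF1A-1 (adjusted p = 0.420). None of the 10 differences passed, where 0.347% of all probe sets did, so the traits were not shown to differ in their relation to these genes. The product of the 2 traits did not pass for any of them either (lowest unadjusted p = 0.0218, for VEGFA-4, adjusted p = 1.0; 0.00418% of all probe sets passed).

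**Figure D3:**
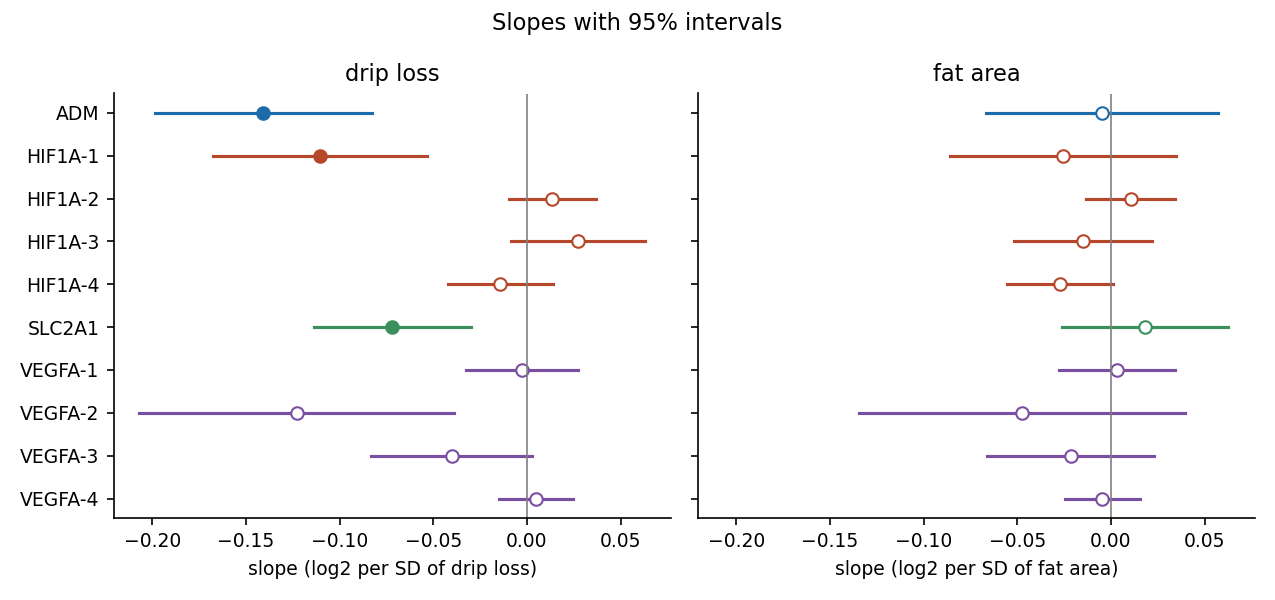
Slopes in log2 per SD of drip loss (left, n = 207) and of fat area (right, 8 animals fewer) with 95% intervals, filled where the adjusted p is under 0.05. ADM, HIF1A-1 and SLC2A1 are filled on the left at -0.14, -0.11 and -0.072, and no probe set is filled on the right.

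The numbers in the animals' titles fall into a higher series of 33 animals and a lower series of all others, and into 10 blocks of 100, which may mark batches. The labels do not say so. Within blocks the drip loss correlation of ADM was negative in 10 of 10, that of VEGFA-2 in 10 of 10, that of HIF1A-1 in 9 and that of SLC2A1 in 8. The block values varied widely, from -0.523 to -0.0001 for ADM and from -0.401 to -0.032 for VEGFA-2. They ran from -0.504 to 0.287 for HIF1A-1 and from -0.408 to 0.524 for SLC2A1. With both measures centred within blocks, r was -0.319 for ADM, -0.219 for HIF1A-1, -0.232 for SLC2A1 and -0.164 for VEGFA-2. In the higher and the lower series r was -0.193 and -0.345 for ADM, -0.320 and -0.265 for HIF1A-1, and -0.272 and -0.219 for SLC2A1. The slopes were not shown to differ between the series for any of the 10 probe sets (adjusted p of 0.996 or more, 0% of all probe sets passed), although HIF1A-2 and HIF1A-4 had an unadjusted p of 0.034 and 0.032. With blocks in the fit ADM still passed (-0.15 ± 0.031, adjusted p = 0.0046), whereas HIF1A-1 (-0.092, adjusted p = 0.109) and SLC2A1 (-0.075, adjusted p = 0.082) did not, and 0.623% of all probe sets passed.

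A group of 24 arrays correlated less with the rest, down to a median correlation of 0.944 against a typical 0.978, and their animals had less drip loss, 4.20 ± 1.55% against 5.53 ± 2.25% (SD) in the others. SLC2A1 averaged 5.96 ± 0.39 log2 on these arrays and 5.74 ± 0.30 on the others (SD). VEGFA-1 averaged 11.15 ± 0.39 and 11.32 ± 0.18, and ADM 7.04 ± 0.50 and 7.08 ± 0.44 on the same sets of arrays. HIF1A-1 averaged 7.55 ± 0.71 and 7.49 ± 0.39 there, so it varied more on the 24 arrays than on the others. Without the 24 arrays the slope was -0.15 ± 0.030 for ADM (adjusted p = 0.00092), -0.12 ± 0.027 for HIF1A-1 (adjusted p = 0.0066) and -0.062 ± 0.021 for SLC2A1, which no longer passed (adjusted p = 0.137). Then 0.831% of all probe sets passed.

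ADM, HIF1A-1 and SLC2A1 were also positively correlated with one another across animals. ADM and HIF1A-1 had r = 0.442 and rho = 0.426 (permutation p = 1e-05 for each, the smallest the permutations can give, adjusted p = 3e-05 and 6e-05 over 6 pairs of genes). HIF1A-1 and SLC2A1 had r = 0.359 and rho = 0.281 (permutation p = 1e-05 and 7e-05, adjusted p = 3e-05 and 0.00021). ADM and SLC2A1 had r = 0.298 and rho = 0.250 (permutation p = 2e-05 and 0.0003, adjusted p = 4e-05 and 0.00045). As a background, 2.44%, 4.81% and 7.53% of all 22879230 gene pairs on these arrays had a higher r, so none of the 3 pairs was extreme among gene pairs, whose median r was 0.0059. Without the 2 animals farthest from the median on the first gene, r was 0.417, 0.316 and 0.248. Centred within blocks it was 0.433, 0.362 and 0.296. In the higher series alone r was 0.298, 0.199 and 0.036 and no pair passed. After the first 5 principal components of all probe sets had been taken out, which held 30.2% of the total variance, HIF1A-1 and SLC2A1 had r = 0.197, ADM and HIF1A-1 had r = 0.118, and ADM and SLC2A1 had r = 0.023.

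VEGFA-1 was negatively correlated with SLC2A1 (r = -0.285 and rho = -0.256, permutation p = 4e-05 and 0.00018, adjusted p = 6e-05 and 0.00036; r = -0.247 without the 2 farthest animals, -0.310 centred within blocks and -0.278 without the 24 arrays). After 5 principal components the r with SLC2A1 was -0.163. As a background, 95.5% of all gene pairs had a higher r than -0.285, so this pair was not extreme among gene pairs either. With ADM, VEGFA-1 had r = 0.027 and rho = -0.047 (permutation p = 0.704 and 0.498), and with HIF1A-1 r = 0.111 and rho = 0.146 (permutation p = 0.110 and 0.0361, adjusted p = 0.132 and 0.0433). The sign with ADM turned without the 24 arrays (-0.071).

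VEGFA-2 and VEGFA-3 were correlated with each other rather than with VEGFA-1. Between them r was 0.756 and rho 0.734 (permutation p = 1e-05 for each), and r was still 0.666 after 5 principal components. Against VEGFA-1, VEGFA-2 had r = 0.06 and VEGFA-3 r = -0.07. VEGFA-2 did follow the other genes, with r = 0.410 with ADM, 0.377 with HIF1A-1 and 0.281 with SLC2A1 (adjusted permutation p from 0.0001 to 0.0002 over 45 pairs of probe sets; rho 0.416, 0.381 and 0.270; r 0.383, 0.385 and 0.286 without the 2 farthest animals, 0.415, 0.347 and 0.243 centred within blocks). After 5 principal components these fell to r = 0.151, 0.145 and 0.075. Among the 4 probe sets of HIF1A the largest correlation in size was -0.10, so the 4 probe sets did not move together.

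**Figure D4:**
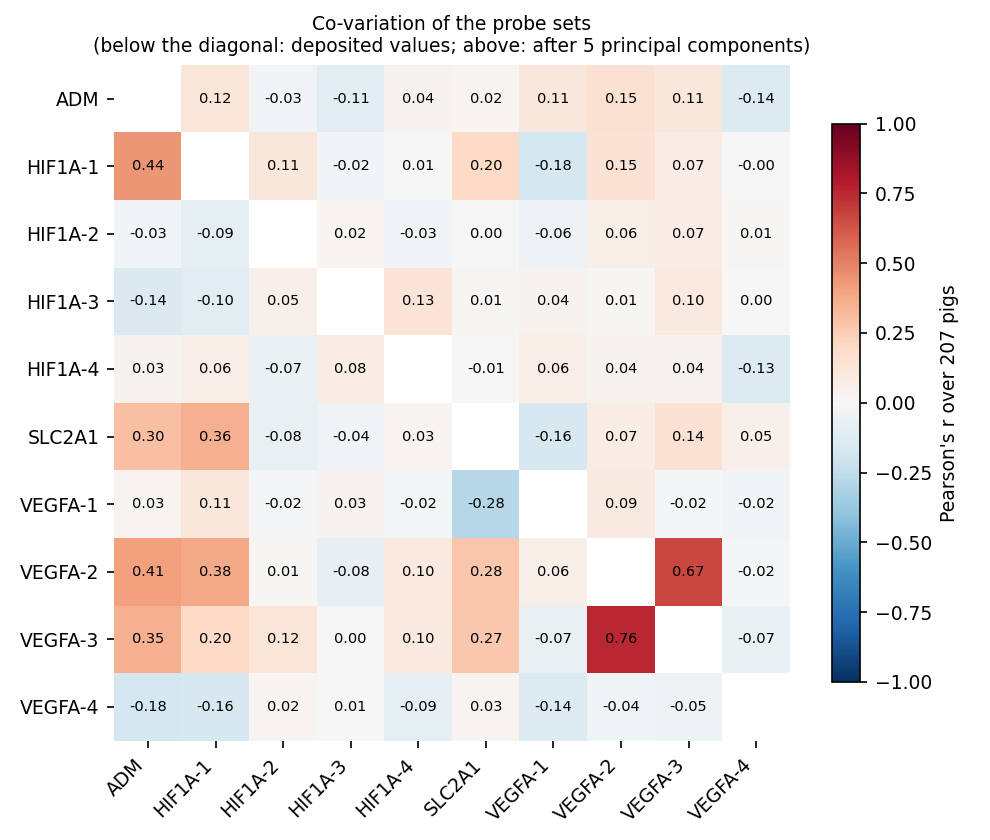
Pearson's r over 207 pigs between the 10 probe sets, from the deposited values below the diagonal and after the first 5 principal components above it, with colour from -1 (blue) to 1 (red). Below the diagonal VEGFA-2 and VEGFA-3 stand out at 0.76, followed by ADM and HIF1A-1 at 0.44 and ADM and VEGFA-2 at 0.41. Above it VEGFA-2 and VEGFA-3 are at 0.67, ADM and HIF1A-1 at 0.12, and most other cells are close to 0.

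The genes whose pattern was most like each member were taken from 4883 genes whose brightest probe set had a mean above the median of all, by Pearson's r over the 207 animals. For ADM they were EGR1, an immediate early transcription factor (r = 0.653), DUSP6, a phosphatase of ERK kinases (0.648), KLF4, a transcription factor (0.644), UAP1, an enzyme of the hexosamine pathway (0.616), and GADD45B, a stress-induced gene (0.607). These stayed at r = 0.394 to 0.540 after 5 principal components. All 5 passed downward for drip loss, where 2.11% of all 6765 genes did, EGR1 by 0.42 ± 0.067 and DUSP6 by 0.14 ± 0.025 log2 per SD. They were picked for likeness to ADM, which itself fell with drip loss, so their falls are no separate result. The lowest r with ADM were those of RPUSD1 (-0.452) and CEP85 (-0.442).

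HIF1A-1 resembled RAP1B, a small GTPase (r = 0.775), HNRNPH3, an RNA-binding protein (0.747), CLTC, the clathrin heavy chain (0.746), CLIC2 (0.742) and PNRC2 (0.736), and was most opposed to POLDIP2 (-0.681) and DHPS (-0.665). Of these likenesses CLIC2 had the highest r after 5 principal components, 0.304, while RAP1B was at 0.062 and PNRC2 at 0.013. The first component, which held 9.30% of all variance, had r = 0.803 and rho = 0.790 with HIF1A-1 (permutation p = 1e-05 for each; r = 0.781 without the 2 farthest animals, 0.780 centred within blocks). The 5 components together accounted for 75.2% of the variance of HIF1A-1, against 37.8% for ADM, 29.9% for SLC2A1, 46.6% for VEGFA-1 and 43% for VEGFA-2. With the 5 components in the fit, none of the 3 drip loss slopes passed, where only 0.0543% of all 23935 probe sets did. The slopes were -0.099 for ADM (adjusted p = 0.105), -0.044 for HIF1A-1 (adjusted p = 0.405) and -0.039 for SLC2A1 (adjusted p = 0.653).

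SLC2A1 resembled EIF4A1, a helicase of translation initiation (r = 0.495), PPRC1, a coactivator of mitochondrial gene expression (0.482), PISD (0.463), LHFPL2 (0.462) and TGIF1, a transcriptional repressor (0.462). The lowest r were those of CEP85 (-0.422) and DCAF8 (-0.415). After 5 principal components the 5 genes most like SLC2A1 were at r = 0.120 (TGIF1) to 0.240 (PPRC1). EIF4A1, PPRC1, PISD and TGIF1 fell with drip loss, by 0.095, 0.12, 0.092 and 0.16 log2 per SD, and the slope of LHFPL2, -0.089, was short of the threshold (adjusted p = 0.090). Over all 6765 genes 2.11% passed downward. Here too the genes were picked for likeness to a member that itself fell with drip loss, so their falls are no separate result. VEGFA-1 resembled RBL2, a retinoblastoma family protein (r = 0.712), SLC35F5 (0.670), USP24, a deubiquitinase (0.664), ACBD5, a peroxisomal protein (0.649), and SMAD4, the common mediator of TGF-beta signalling (0.643), and opposed ARPC4 (-0.588) and CHMP2A (-0.583). None of these 7 passed for drip loss, where 6.08% of all 6765 genes passed in either direction. A set of 7 is too small to fall clearly below that share.

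The same ranking was made for VEGFA-2 after its values had been seen. Its nearest gene was PPARGC1A, the coactivator of mitochondrial biogenesis in muscle (r = 0.844), then NR4A3, an orphan nuclear receptor (0.772), PRKAG2, a subunit of the kinase AMPK (0.760), DDIT3, a stress transcription factor (0.631), and LONRF3 (0.628). After 5 principal components the first 3 still had r = 0.729, 0.604 and 0.621. PPARGC1A, PRKAG2, NR4A3 and DDIT3 were also the 4 nearest to VEGFA-3, at r = 0.687, 0.637, 0.602 and 0.588. NR4A3 fell by 0.30 ± 0.078, PRKAG2 by 0.16 ± 0.051 and LONRF3 by 0.22 ± 0.049 log2 per SD of drip loss, while PPARGC1A (-0.27 ± 0.087, adjusted p = 0.051) and DDIT3 (-0.14 ± 0.047, adjusted p = 0.059) did not pass. Over all 6765 genes 2.11% passed downward. Being picked for likeness to VEGFA-2, whose own slope was negative, these genes give no separate result on drip loss.

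Around HIF1A itself, 12 genes of the HIF subunits and oxygen sensing were measured, and 1 passed for drip loss, HIF1A. That is near the 6.08% of all genes that passed. EPAS1, which encodes the related HIF2 alpha protein, had a slope of -0.0056 ± 0.018 log2 per SD (adjusted p = 0.910). ARNT, the partner of both, had 0.014 ± 0.011 (adjusted p = 0.554), and the hydroxylase EGLN1 had -0.0001 ± 0.019 (adjusted p = 0.998). VHL had no probe set with a single symbol and was not analysed here. The median slope of the 12 was -0.0029, against 0.0080 over all 6765 genes.

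Of the 29 further HIF targets 15 had a negative slope and the median slope was -0.00062. LDHA and PGK1, enzymes of glycolysis, had slopes of 0.0026 ± 0.0057 and 0.022 ± 0.010 log2 per SD (adjusted p = 0.856 and 0.196). The median r of the 29 with ADM was 0.052, with HIF1A-1 0.094, with SLC2A1 -0.039 and with VEGFA-1 0.080, against -0.014, -0.0074, -0.028 and -0.0044 over all genes. The targets closest to ADM were HMOX1, a haem-degrading enzyme (0.434), ANKRD37 (0.413) and HILPDA, a lipid droplet protein (0.398). Those closest to HIF1A-1 were WSB1 (0.530) and HMOX1 (0.498). At the other end r was -0.319 with ADM and -0.370 with HIF1A-1. It was positive in 21 of the 29 with ADM and in 15 of the 29 with HIF1A-1. For fat area, 0 of the 29 passed, where 0.148% of all 6765 genes did.

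No receptor or relative of the members passed, but in lists this short 0 is near the 6.08% of all genes that passed. Of 8 other VEGF and angiopoietin ligands and receptors 0 passed for drip loss, with slopes of 0.033 ± 0.018 for KDR and 0.0025 ± 0.031 for FLT1, both VEGFA receptors (adjusted p = 0.297 and 0.979). Of 6 genes of the adrenomedullin receptor and of peptide processing 0 passed, with slopes below 0.0001 in size for the receptor CALCRL (SE 0.013) and of -0.012 ± 0.016 for RAMP2, which makes CALCRL respond to adrenomedullin (adjusted p = 1.0 and 0.724). Of 6 other glucose transporters 0 passed, among them SLC2A4, the insulin-dependent transporter of muscle (0.011 ± 0.021, adjusted p = 0.820). SLC2A3, a transporter of high affinity, was short of the threshold at -0.089 ± 0.035 (adjusted p = 0.126), and it followed ADM (r = 0.606), HIF1A-1 (0.659) and SLC2A1 (0.364) over the 207 animals, the highest r among these 6 for each. In all of these lists 0 genes passed for fat area.

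Immediate early genes are induced within minutes by stress and growth signals. They had higher median correlations with ADM, HIF1A-1 and SLC2A1 than the HIF targets had. Their list was written with earlier results of these data known. Of 19 measured, 12 fell with drip loss, where 2.11% of all genes passed downward, DUSP1 by 0.27 ± 0.039 and CYR61 by 0.34 ± 0.050 log2 per SD among them, with a median slope of -0.14. The median r of the 19 with ADM was 0.493, with HIF1A-1 0.308, with SLC2A1 0.247 and with VEGFA-2 0.349, and with VEGFA-1 -0.079. With the mean of the 19, ADM had r = 0.694 and rho = 0.707, VEGFA-2 r = 0.512 and rho = 0.530, HIF1A-1 r = 0.483 and rho = 0.490, and SLC2A1 r = 0.362 and rho = 0.357 (permutation p = 1e-05 for each, adjusted p = 0.00009 for r over 100 relations with 10 list means). Without the 2 animals farthest from the median of the mean of the 19, r was 0.718, 0.537, 0.488 and 0.360. Centred within blocks it was 0.695, 0.507, 0.466 and 0.357. VEGFA-1 had r = -0.075 and rho = -0.117 (permutation p = 0.281 and 0.0948).

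With the immediate early gene mean as a covariate, no member passed for drip loss. The slope was then -0.022 ± 0.024 for ADM (adjusted p = 0.820), -0.033 ± 0.029 for HIF1A-1 (adjusted p = 0.745), -0.032 ± 0.022 for SLC2A1 (adjusted p = 0.682) and 0.0052 ± 0.041 for VEGFA-2 (adjusted p = 0.982). Over all probe sets 0.00418% passed in that fit. The part of the immediate early genes in these results was not tested.

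**Figure D5:**
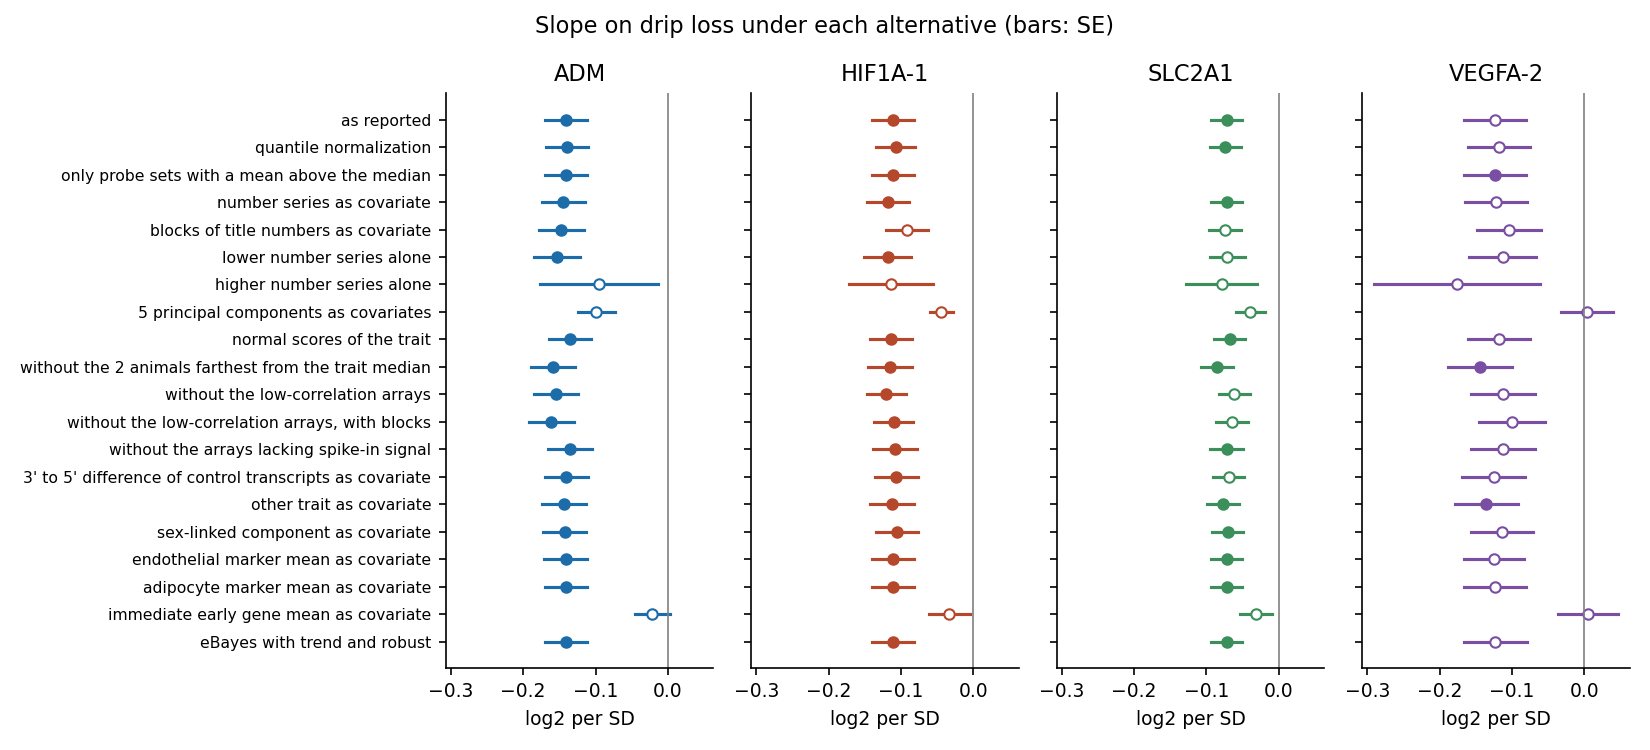
Drip loss slope in log2 per SD (horizontal axes) with SE bars for ADM, HIF1A-1, SLC2A1 and VEGFA-2, as reported and under each alternative (rows), filled where the adjusted p is under 0.05. The slopes stay left of 0 in the first 3 panels, come closest to 0 with the immediate early gene mean as a covariate (-0.022 for ADM), and VEGFA-2 reaches 0.0052 there.

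In whole muscle, a lower signal from fewer cells of a type and one from less RNA per cell cannot be told apart. Genes that define skeletal muscle were bright on every array, with a mean over 23 markers of 13.27 to 13.64 log2, so the tissue label held. For drip loss, 0 of 12 adipocyte, 0 of 12 macrophage, 0 of 11 fibroblast, 0 of 9 pericyte and smooth muscle and 0 of 23 skeletal muscle markers passed, where 6.08% of all genes passed, so that each list by itself is too short to fall clearly below that share. Among the others, where 2.11% of all genes passed downward, ENG fell among 17 endothelial markers (-0.068 ± 0.022) and SDC4 among 6 satellite cell markers (-0.10 ± 0.024), while upward, where 3.96% of all genes passed, CCL5 rose among 12 lymphocyte markers (0.076 ± 0.025) and HBE1 among 9 blood cell markers (0.11 ± 0.026). No marker of these lists had its median at the floor.

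Several marker means moved with the members, and the 2 farthest animals below are those farthest from the median of the marker mean. HIF1A-1 correlated with the satellite cell mean (r = 0.439, rho = 0.397), the macrophage mean (r = 0.422, rho = 0.314) and the fibroblast mean (r = 0.363, rho = 0.325), which ranged from 6.74 to 7.82, 6.32 to 8.80 and 7.68 to 9.68 log2 over the arrays (adjusted permutation p = 0.00009 for each r; r = 0.371, 0.324 and 0.366 without the 2 farthest animals). SLC2A1 correlated with the satellite cell mean (r = 0.378, rho = 0.346) and negatively with the skeletal muscle mean (r = -0.291, rho = -0.235; r = 0.317 and -0.268 without the 2 farthest animals). VEGFA-1 was lower where the endothelial mean (6.68 to 7.59 log2; r = -0.317, rho = -0.228) and the pericyte and smooth muscle mean (9.13 to 9.87 log2; r = -0.346, rho = -0.297) were higher, whereas VEGFA-2 rose with the endothelial mean (r = 0.233, rho = 0.266). Without the 24 arrays the endothelial r of VEGFA-1 was -0.163. Drip loss slopes of ADM, HIF1A-1 and SLC2A1 passed with the endothelial or the adipocyte mean in the fit, where 4.76% and 4.89% of all probe sets passed. The means of the other cell types, satellite cells, macrophages and fibroblasts among them, were not put in a fit. The part of any cell type in these slopes was not tested.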

How the data were processed

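Muscle RNA of 207 pigs was measured, 1 array per animal. The files hold log2 expression values as deposited by the authors, with a floor at 4. Per the submitters' processing notes, arrays were read with GCOS 1.1.1 and summarised with PLIER; how arrays were normalized against each other is not given in the sources used here. The values were used as they stand, with array medians between 5.96 and 6.18 log2. Precision is set by how many arrays there are. Of 24123 probe sets, 188 controls were left out; 10069 of the remaining 23935 had a single gene symbol, which gave 6765 genes, each represented by its brightest probe set.

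Each probe set was regressed on the trait in SD units with limma 3.58.1 (R 4.3.3), with two-sided tests and Benjamini-Hochberg adjustment over all 23935 probe sets. Correlations were tested two-sided with 100000 permutations (scipy 1.17.1), adjusted within families of 20 trait relations, 6 or 45 pairs of members, 100 relations with list means and 90 with array properties. Both steps were tested on simulated data. Arrays were called low in correlation when their median correlation with the others lay over 3 scaled MADs below the median of all arrays.

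The members and gene lists were chosen with earlier results of these data known. Named were all member probe sets, the 5 genes most like each member and the 2 least like it, listed genes that passed, a few fixed receptors, partners and enzymes, and the leading markers. SLC2A3, the HIF targets nearest to a member and the genes nearest to VEGFA-2 and VEGFA-3 were named after their values were seen. The alternatives were another normalization, a filter on dim probe sets, series and blocks of title numbers, principal components, normal scores, left-out animals or arrays, and covariates for RNA quality, the other trait, sex-linked genes and marker means. Sequences were not used here.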

Additional observations from a re-analysis of the deposited data

How the results depend on the processing

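No paired analysis was possible because the labels put all animals in 1 group, and precision depends on how many arrays there are. The drip loss slope of ADM passed under 16 of 19 alternatives (-0.16 to -0.14 log2 per SD), that of HIF1A-1 under 15 of 19 (-0.12 to -0.11) and that of SLC2A1 under 10 of 18 (-0.085 to -0.068). The test on brighter probe sets gave no value for SLC2A1, HIF1A-2, HIF1A-3, HIF1A-4, VEGFA-3 and VEGFA-4. Calls were lost as follows, and the cause was not tested, except that the higher series holds only 33 animals. In the higher series alone the slopes were -0.095 for ADM, -0.11 for HIF1A-1 and -0.079 for SLC2A1 (adjusted p = 0.817, 0.679 and 0.743), and with the 5 principal components -0.099, -0.044 and -0.039. With the immediate early gene mean they were -0.022, -0.033 and -0.032. With blocks HIF1A-1 was at -0.092 and SLC2A1 at -0.075. SLC2A1 was also lost in the lower series alone (-0.071, adjusted p = 0.106), without the low-correlation arrays (-0.062), without them and with blocks (-0.065, adjusted p = 0.175) and with the 3' to 5' difference of control transcripts as covariate (-0.069, adjusted p = 0.055). The other probe sets of HIF1A gave 0.014, 0.027 and -0.014.

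Slopes that were not called changed sign in several settings. For drip loss VEGFA gave 0.0021 without the 2 most extreme animals and 0.0050 by VEGFA-4; VEGFA-2 gave 0.0040 with the components and 0.0052 with the immediate early gene mean, VEGFA-3 0.0046 and 0.017 in the same settings, and VEGFA-4 -0.00074 in the higher series and -0.0014 with the immediate early gene mean. For fat area ADM gave 0.061 in the higher series, 0.00040 with the components, 0.011 without the 2 most extreme animals and 0.0071 with the endothelial mean, and HIF1A-2 gave 0.010. VEGFA-1 gave a fat area slope of -0.026 in the higher series, -0.0040 with the components, -0.0057 without the low-correlation arrays, -0.0036 without them and with blocks, -0.011 with the sex-linked component and -0.019 with the endothelial mean, while VEGFA-2, VEGFA-3 and VEGFA-4 stood at -0.048, -0.022 and -0.0046, and at 0.14, 0.025 and 0.0057 in the higher series.

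For drip loss 4.61% of all 23935 probe sets passed, against 0.623% with blocks, 0.823% in the lower series, 0% in the higher series by limma (1789 probe sets at an unadjusted p under 0.05), 0.0543% with the components, 0.831% without the low-correlation arrays, 0.355% without them and with blocks, 2.43% with the 3' to 5' difference, 2.98% with the sex-linked component and 0.00418% with the immediate early gene mean. For fat area 0.121% passed, against 0% by limma in the higher series (978 probe sets at an unadjusted p under 0.05), 0.38% with the components, 0% by limma with the sex-linked component (1383 probe sets at an unadjusted p under 0.05) and 0.0794% with the endothelial mean.

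Of the pairs of genes, ADM and HIF1A-1 had r = 0.118 after the components and 0.298 in the higher series, ADM and SLC2A1 0.023 and 0.036, and in the higher series HIF1A-1 and SLC2A1 0.199 and SLC2A1 and VEGFA-1 -0.227, none past the threshold. ADM and VEGFA-1 changed sign with quantile normalization (-0.049), without the low-correlation arrays (-0.071) and in the lower series (-0.034). HIF1A-1 and VEGFA-1 had r = -0.178 after the components, and 0.145 without the 2 farthest animals, where the pair passed.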
